A study of Mus musculus with 20 samples.

Results

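The genes described here encode 9 proteins that move ions and water across the airway epithelium: Slc26a4, Cftr, Ano1, Slc12a2, Scnn1a, Scnn1b, Scnn1g, Atp12a and Aqp3. They were chosen for their known function, with earlier results of these data known, and taken by gene symbol from a table of 24054 genes in whole mouse lung, and all 9 were found. Enough reads for a test were present for 16193 genes, among them 8 of the 9; Atp12a fell short and is described by its counts alone. The 20 RNA-seq libraries came from lungs of female C57Bl6 mice in 4 groups of 5 biological replicates. WT_saline mice were wild type and received saline, WT_HDM mice were wild type and received house dust mite extract (HDM), KO_saline mice were labelled as lacking Alox15 and received saline, and KO_HDM mice carried that same label and received HDM. HDM is an inhaled allergen that inflames the airways, and mice took it intranasally each day over 14 days. The product of Alox15 is an enzyme that adds oxygen to polyunsaturated fatty acids. The labels do not say which cells or exons the Alox15 deletion affects.

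The airway surface is covered by a thin liquid layer whose depth and pH decide how well cilia can clear mucus. Chloride leaves epithelial cells at the lumen through Cftr, the cAMP-gated anion channel mutated in cystic fibrosis, and through Ano1, a calcium-gated chloride channel, while Slc12a2, the sodium-potassium-chloride cotransporter NKCC1, loads chloride into the cell from the blood side. Slc26a4 (pendrin) exchanges chloride for bicarbonate, iodide or thiocyanate at the lumen. In the other direction the epithelial sodium channel ENaC, assembled from subunits encoded by Scnn1a, Scnn1b and Scnn1g, takes up sodium, and water follows. Atp12a pumps protons outward in exchange for potassium and acidifies the liquid, and Aqp3 is a water and glycerol channel of the basolateral membrane, known in airways from basal cells.

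The 250 bases before the start of 3 of the genes are shown because Slc26a4 had the largest change of the 9 and because Scnn1b and Scnn1g, which lie 131 kb apart on chromosome 7, had the highest Pearson r of any pair within groups. The bases come from RefSeq on build GRCm38.p6, which covered 6 of the 9 genes. They are written 5′ to 3′ on the strand of the gene, and capitals mark the TATA box TATAAA and the GC box GGGCGG, read on both strands.
Slc26a4, chr12:31559985-31560234, minus strand: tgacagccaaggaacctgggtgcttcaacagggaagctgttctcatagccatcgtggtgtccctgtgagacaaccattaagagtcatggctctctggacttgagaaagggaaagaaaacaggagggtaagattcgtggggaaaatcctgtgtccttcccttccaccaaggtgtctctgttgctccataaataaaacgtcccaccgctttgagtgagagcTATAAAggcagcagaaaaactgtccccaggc
Scnn1g, chr7:121734229-121734478, plus strand: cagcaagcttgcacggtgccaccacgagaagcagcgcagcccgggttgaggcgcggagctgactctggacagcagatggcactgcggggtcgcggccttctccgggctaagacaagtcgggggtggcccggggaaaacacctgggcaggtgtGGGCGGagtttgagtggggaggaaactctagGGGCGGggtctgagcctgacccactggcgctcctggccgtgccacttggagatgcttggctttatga
Scnn1b, chr7:121864788-121865037, plus strand: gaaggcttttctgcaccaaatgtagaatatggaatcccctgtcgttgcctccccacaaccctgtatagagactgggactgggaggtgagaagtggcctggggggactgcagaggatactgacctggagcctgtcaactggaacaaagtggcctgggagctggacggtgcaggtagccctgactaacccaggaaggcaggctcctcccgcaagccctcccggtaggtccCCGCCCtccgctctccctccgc
The Slc26a4 window held 1 TATA box, beginning 31 bases before the start (position -31), and no GC box. The Scnn1g window held GC boxes at -98 and -67 and the Scnn1b window 1 at -22, and neither held a TATA box. Among 27025 mouse promoters of the same length, 13% held TATAAA and 32.9% held GGGCGG. G and C made up 49.6% of the Slc26a4 window, 65.2% of the Scnn1g window and 60.8% of the Scnn1b window, against a median of 52% over all promoters. The Cftr window, not printed, was 76.4% G and C and held 6 GC boxes. Of the other motifs searched on both strands, the STAT6 pattern (TTC and GAA with any 4 bases between them, 5.86% of promoters) and the forkhead pattern TGTTTAC (3.09%) were in none of the 6 windows, and the hexamer TGTTCT of the glucocorticoid receptor element (16.2%) was at -213 of Slc26a4 alone. Different motifs did not overlap in these windows, while 3 of the GC boxes in the Cftr window overlapped one another. These are matches of letters, and binding was not measured.

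Libraries held 12573113 to 23305673 expected counts. Levels are counts scaled to library size (CPM), with TMM factors. Interval estimates bound the log2 difference between groups, given the spread between libraries. The Alox15 transcript was more abundant, rather than depleted, where the label says knockout: the groups held 4.58 ± 4.00, 18.6 ± 8.53, 40.8 ± 2.45 and 41.1 ± 4.07 CPM (SD, n = 5; WT_saline, WT_HDM, KO_saline, KO_HDM). The edgeR adjusted p for the labels was 0.000583 under saline and 0.107 under HDM. Every direction between genotypes is therefore one between labels. Epithelial content was read from 6 pan-epithelial markers, all detected. Their sum lay at 663 to 921, 536 to 807, 823 to 1053 and 610 to 740 CPM in WT_saline, WT_HDM, KO_saline and KO_HDM. It was thus lower in every KO_HDM library than in every KO_saline library. At an edgeR adjusted p under 0.05, HDM lowered 1 of the 6 in wild type and 3 under the knockout label, and raised 0. Over all genes tested 16.5% and 25.7% were lower. Some libraries carried transcripts of other tissues. WT_saline 2 and 4, WT_HDM 2 and 4 and KO_HDM 5 held the adipose gene Adipoq at or above 50 CPM. WT_HDM 2 was also rich in skeletal muscle genes. Summed liver markers lay at 35.8 to 114 CPM in the KO_HDM libraries, against 1.41 to 6.99 CPM in the other groups. Their origin was not tested. Comparisons that use KO_HDM cannot set this group-wide difference apart from label or treatment. Summed markers of airway basal cells reached 20.4 to 65.8 CPM in WT_saline 2 and 4, WT_HDM 3 and 4 and KO_HDM 5, against 2.39 to 9.23 CPM in the other 15.

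The opening question is what repeated allergen does to these genes in wild-type lung, and then in lungs labelled knockout. In both, the anion exchanger Slc26a4 rose more than any other of the 9, Cftr about doubled, and the beta and gamma subunits of ENaC fell. In wild type 2 genes rose (Slc26a4 and Cftr) and 2 fell (Scnn1b and Scnn1g) of 8 tested, where 13.6% of all genes tested rose and 16.5% fell. The libraries of WT_saline and WT_HDM did not overlap for 2 of the 8, Slc26a4 and Scnn1b, against 11.6% of all genes. Under the knockout label 4 rose (Slc26a4, Cftr, Slc12a2 and Aqp3) and 3 fell (the ENaC subunits), where 26.2% of all genes rose and 25.7% fell; for 6 of the 8 the groups did not overlap, against 43.9% of all genes. For the knockout label the background was one in which more of all genes tested moved than did not. A gene is said to rise or fall where edgeR's robust quasi-likelihood F test over all genes gave a Benjamini-Hochberg adjusted p under 0.05. The median log2 fold change of the 8 was 0.07 in wild type and 0.10 under the knockout label, beside -0.02 and 0.02 over all genes tested.

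**Figure D1:**
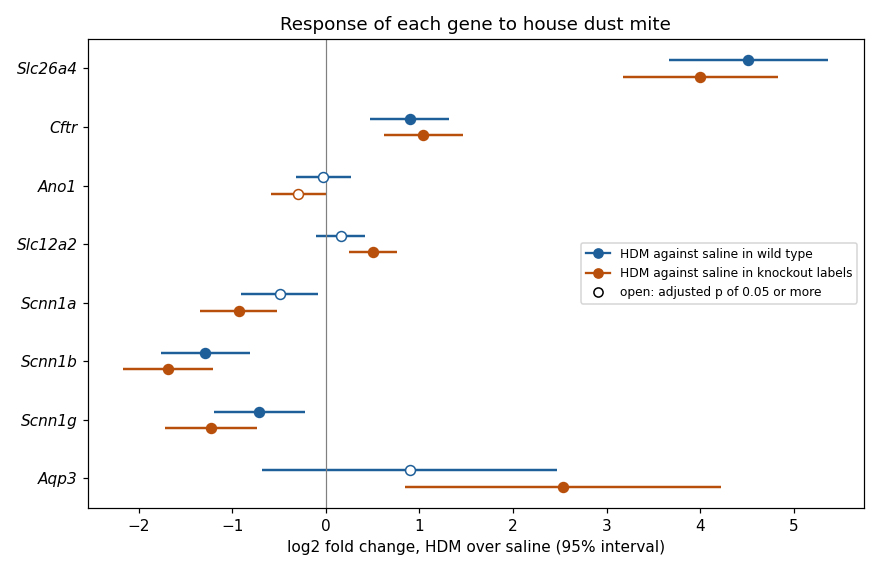
Log2 fold change of HDM over saline for each of the 8 tested genes, with its 95% interval, in wild type (blue) and in libraries labelled knockout (orange); open points had an adjusted p of 0.05 or more. Slc26a4 lies alone at 4.51 and 4.00, Scnn1b is lowest at -1.29 and -1.68, and Aqp3 has the widest intervals.

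Slc26a4, the chloride and bicarbonate exchanger, was low in saline lungs and far higher under HDM. WT_saline replicates 1 to 5 held 8.19, 24.5, 8.24, 5.80 and 8.15 CPM, and KO_saline replicates held 7.99, 7.09, 16.9, 8.52 and 13.1 CPM. WT_HDM replicates held 348, 234, 345, 155 and 172 CPM, and KO_HDM replicates 114, 171, 193, 155 and 227 CPM. Every HDM library was above every saline library, and WT_saline 2 stood above the other saline libraries. The log2 fold change was 4.51 ± 0.41 (SE) in wild type, a 22.9-fold rise, with an edgeR adjusted p of 5.48e-07. It was 4.00 ± 0.40 under the knockout label, a 16.0-fold rise, with an adjusted p of 3.55e-07. An exact two-sided permutation test of log2 CPM gave p = 0.00794 in each (n = 5 against 5), the smallest such a design allows. Without the 5 libraries rich in adipose transcripts the wild-type value was 5.12. Goblet cell markers rose under HDM as well, all 10 in each label. Their summed level went from 186 to 1038 CPM in WT_saline to 3636 to 9492 CPM in WT_HDM. It went from 71.2 to 366 CPM in KO_saline to 2917 to 9163 CPM in KO_HDM. Within the HDM groups the order of libraries differed in part. The sum was highest in WT_HDM 3 and KO_HDM 5, with Slc26a4 at 345 and 227 CPM. WT_HDM 4 and KO_HDM 1, lowest in Slc26a4, had sums of 5895 and 4874 CPM. The part of goblet cells in the Slc26a4 result was not tested.

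**Figure D2:**
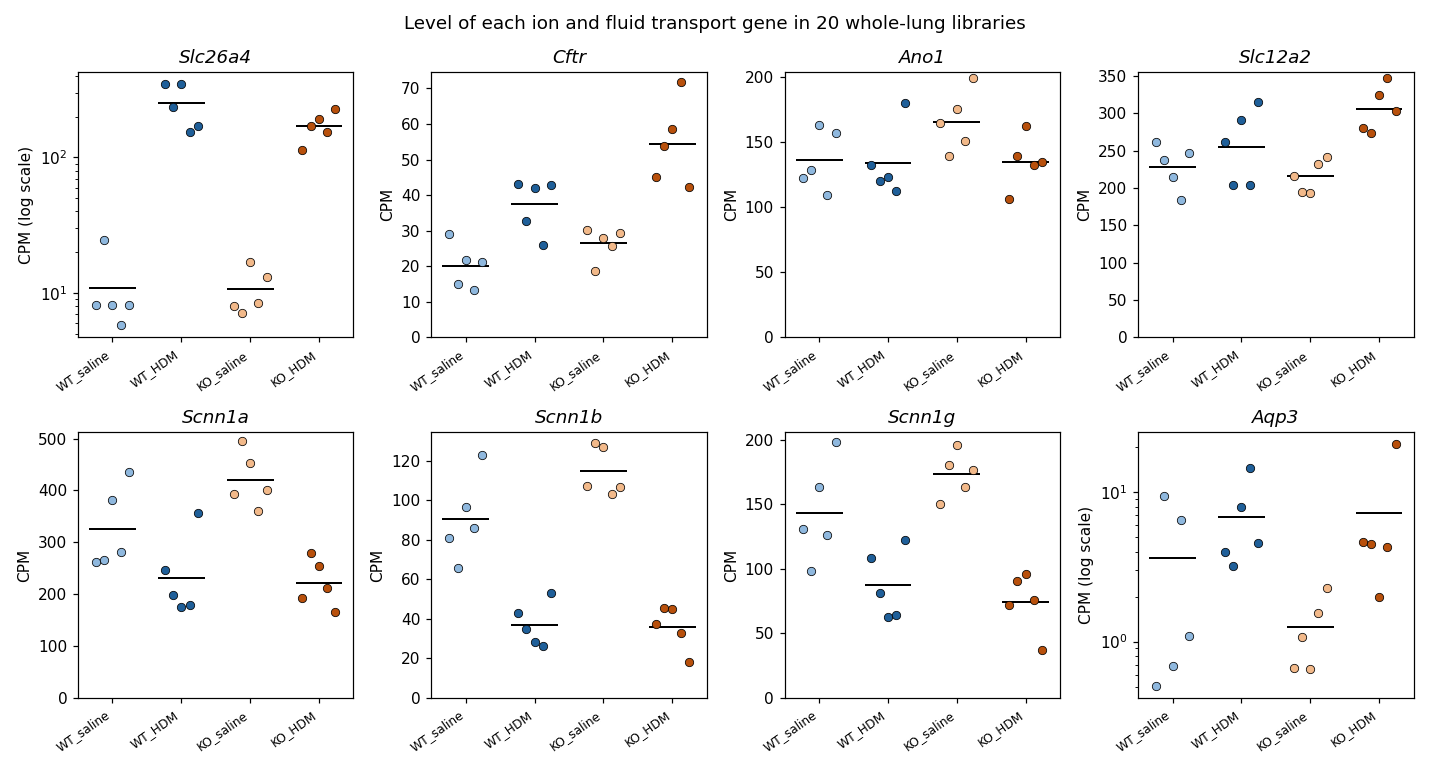
Level of the 8 tested genes in CPM in each library, by group; points are libraries in replicate order and lines are group means, with a log axis for Slc26a4 and Aqp3. Slc26a4 separates saline from HDM in both labels, Scnn1b does so as well, Scnn1a and Scnn1g overlap in wild type, and 1 KO_HDM library at 21.0 CPM stands above the rest for Aqp3.

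Cftr rose in both labels, from a low level. WT_saline replicates held 29.2, 15.1, 21.7, 13.4 and 21.3 CPM and WT_HDM replicates 43.2, 32.8, 42.1, 26.1 and 43.0 CPM. These groups overlapped through WT_saline 1 and WT_HDM 4. KO_saline replicates held 30.2, 18.7, 28.0, 25.7 and 29.4 CPM and KO_HDM replicates 45.1, 53.9, 58.6, 71.7 and 42.1 CPM, with no overlap. The log2 fold change was 0.90 ± 0.20 in wild type (edgeR adjusted p = 0.00284, exact permutation p = 0.0159, n = 5) and 1.04 ± 0.20 under the knockout label (edgeR adjusted p = 0.000286, exact permutation p = 0.00794). Within wild type, Cftr was lowest in the saline libraries 2 and 4 and the HDM library 4, which were also rich in basal and adipose transcripts. Without the basal-rich libraries its log2 fold change was 0.73 (adjusted p = 0.0151) and 1.11 (adjusted p = 3.64e-05). Ionocytes, rare cells known for high Cftr, left little trace: Foxi1, which defines them, had 3, 5, 2 and 2 counts over WT_saline, WT_HDM, KO_saline and KO_HDM. Ascl3 had 15, 9, 8 and 4 counts and Atp6v1g3 10, 14, 14 and 8. Of the 3 other markers on that list, Atp6v0d2 and P2ry14 rose in both labels, and both are also expressed by macrophages or other immune cells. The summed list went from 32.6 to 56.4 CPM in WT_saline to 119 to 217 CPM in WT_HDM and from 41.0 to 57.6 CPM in KO_saline to 186 to 224 CPM in KO_HDM.

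Ano1, the calcium-gated chloride channel of epithelium and smooth muscle, passed the test in neither label. WT_saline replicates held 123, 129, 164, 109.8 and 157 CPM and WT_HDM replicates 132, 120.1, 124, 113 and 180.0 CPM. KO_saline replicates held 165, 139, 176, 151 and 199.6 CPM and KO_HDM replicates 106, 139.5, 163, 133 and 135 CPM. All 4 groups overlapped, and WT_HDM 5 was the highest of the wild-type libraries. The log2 difference was -0.03 in wild type (95% interval -0.32 to 0.27; edgeR adjusted p = 0.908) and -0.30 under the knockout label (-0.59 to -0.0022; adjusted p = 0.0847). The second value crossed the threshold in the fit of the compared groups alone (adjusted p = 0.0484), with a replicate block (0.0314), without WT_saline 3 (0.0481) and without KO_HDM 3 (0.0425).

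Slc12a2, the cotransporter that brings chloride into the cell, rose under the knockout label. KO_saline replicates held 217, 194, 194, 232 and 241 CPM and KO_HDM replicates 280.3, 274, 324, 347 and 303 CPM, so that every HDM library was above every saline library. The log2 fold change was 0.50 ± 0.12, with an edgeR adjusted p of 0.00222. WT_saline replicates held 261, 237, 215, 184 and 246 CPM and WT_HDM replicates 262, 205, 291, 204 and 315 CPM. Here the groups overlapped widely, and the log2 difference was 0.16 (95% interval -0.10 to 0.42; adjusted p = 0.356). The responses of the labels were compared by the interaction, which was 0.34 ± 0.18 for Slc12a2 and did not pass (edgeR adjusted p = 0.347).

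Among the ENaC subunits, Scnn1b and Scnn1g fell under HDM in both labels and Scnn1a under the knockout label, and Scnn1b, the beta subunit, had the largest change. WT_saline replicates held 80.8, 65.5, 96.4, 86.1 and 123 CPM of Scnn1b and WT_HDM replicates 43.0, 34.8, 28.0, 26.3 and 52.9 CPM. KO_saline replicates held 107, 129, 127, 103 and 107 CPM and KO_HDM replicates 37.3, 45.5, 45.1, 32.9 and 17.9 CPM. No HDM library reached the level of a saline library, in either label. The log2 fold change was -1.29 ± 0.23 in wild type (edgeR adjusted p = 0.000417) and -1.68 ± 0.23 under the knockout label (adjusted p = 8.88e-06), with an exact permutation p of 0.00794 in each (n = 5). That is a level 2.44 times lower and 3.21 times lower. In whole lung, fewer cells of a type and less RNA per cell cannot be told apart.

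Scnn1g, the gamma subunit, followed. WT_saline replicates held 131, 98.6, 164, 126 and 198 CPM and WT_HDM replicates 109, 81.2, 62.9, 63.8 and 122 CPM. WT_HDM 1 and 5 lay above WT_saline 2, so these groups overlapped. KO_saline replicates held 150.1, 180.3, 196, 164 and 177 CPM and KO_HDM replicates 71.7, 90.7, 96.2, 75.9 and 37.1 CPM, with no overlap and with KO_HDM 5 lowest. The log2 fold change was -0.71 ± 0.23 in wild type (edgeR adjusted p = 0.0273) and -1.22 ± 0.23 under the knockout label (adjusted p = 0.000269). The wild-type call was lost in the fit of the compared groups alone (adjusted p = 0.0527) and without WT_saline 3 (0.0606), WT_saline 5 (0.107), WT_HDM 2 (0.0676), WT_HDM 3 (0.0897) or WT_HDM 4 (0.0646).

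Scnn1a, the alpha subunit that the channel cannot do without, fell under the knockout label. KO_saline replicates held 392, 496, 452, 361 and 400.2 CPM and KO_HDM replicates 192, 279, 255, 211 and 165 CPM, with no overlap. Its log2 fold change there was -0.93 ± 0.20, with an edgeR adjusted p of 0.000606. WT_saline replicates held 261, 266, 381, 282 and 435 CPM and WT_HDM replicates 245, 199.0, 175, 179 and 356 CPM. WT_HDM 5 lay above 3 of the saline libraries, so the groups overlapped. The log2 difference in wild type was -0.49 ± 0.20 (95% interval -0.90 to -0.084; adjusted p = 0.063). It crossed the threshold with library size scaling (adjusted p = 0.0411), with DESeq2 (0.0428), with limma voom (0.0458) and without WT_saline 1 (0.0335), WT_saline 2 (0.048) or WT_HDM 5 (0.00609).

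The subunits did not fall in proportion, as their ratios within a library show. The ratio tests were added after the data were seen. They use the same counts as the subunit tests above and are not independent of them. The ratios are of CPM, not corrected for length, so they compare libraries and not subunits. The ratio of Scnn1b to Scnn1a was 0.310, 0.246, 0.253, 0.306 and 0.283 in WT_saline and 0.175, 0.175, 0.160, 0.147 and 0.149 in WT_HDM. It was 0.274, 0.260, 0.281, 0.286 and 0.267 in KO_saline and 0.195, 0.163, 0.177, 0.156 and 0.108 in KO_HDM. Every HDM library was below every saline library, with log2 differences of -0.79 and -0.80 (exact two-sided permutation p = 0.00794 each, the smallest possible, 12 ratio tests in all, n = 5). The ratio of Scnn1b to Scnn1g went from 0.635 ± 0.038 to 0.423 ± 0.019 in wild type and from 0.662 ± 0.051 to 0.481 ± 0.033 under the knockout label (SD, n = 5; exact p = 0.00794 each), also without overlap. The ratio of Scnn1g to Scnn1a overlapped in wild type, at 0.441 ± 0.047 under saline and 0.382 ± 0.042 under HDM (exact permutation p = 0.0635). Under the knockout label it was 0.415 ± 0.040 and 0.332 ± 0.064 (exact p = 0.0317), with KO_HDM 5 lowest at 0.225. Between labels under HDM the ratio of Scnn1b to Scnn1g was higher in KO_HDM (log2 difference 0.18, exact permutation p = 0.0159, one of those 12 tests). The reads of Scnn1b can include an opposite-strand neighbour, Cog7, in the GENCODE annotation. Other members overlap genes there too. Cftr overlaps Gm15595 on the same strand and Gm15592 on the opposite one. Ano1 overlaps Gm44930 and Atp12a overlaps Gm10873, both on the opposite strand. The labels describe a strand-keeping library, and whether the counting used strand is not given in the sources used here.

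**Figure D3:**
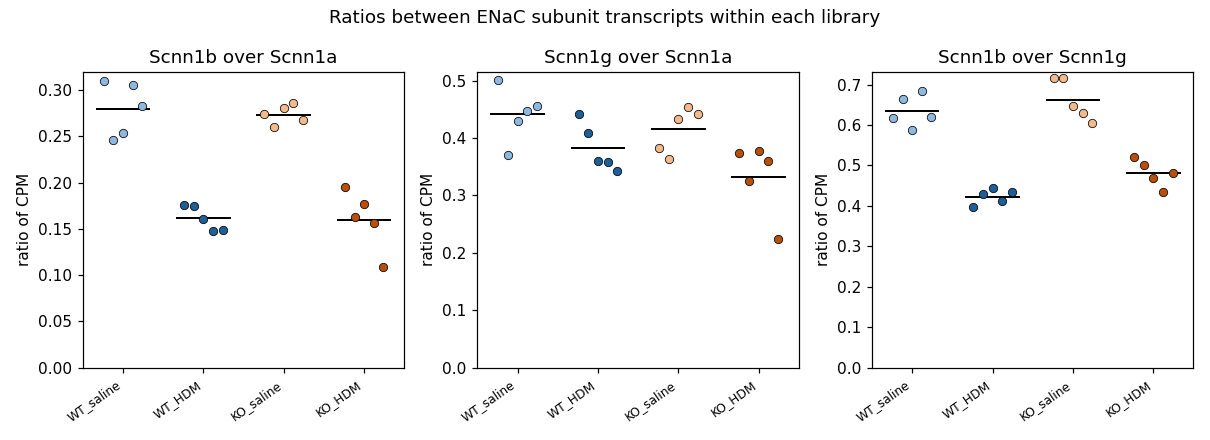
Ratio of CPM between pairs of ENaC subunit transcripts in each library, by group; points are libraries and lines are group means. Both ratios with Scnn1b as the numerator are lower in every HDM library than in every saline library of the same label, and the ratio of Scnn1g to Scnn1a overlaps in wild type.

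Within groups the subunits also varied together. After subtracting each group's mean from log2 CPM, Scnn1b and Scnn1g gave a Pearson r of 0.974 over 20 libraries (Spearman rho 0.917, and r = 0.954 without the 2 libraries farthest from the median). Scnn1a gave r = 0.877 with Scnn1b and 0.867 with Scnn1g (rho 0.908 and 0.920; 0.846 and 0.844 without 2 libraries). By rho, Scnn1a with Scnn1g was thus marginally above Scnn1b with Scnn1g. Such closeness was not particular to the subunits. Among genes picked for likeness over the 20 libraries, Mid1ip1 gave a within-group r of 0.956 with Scnn1a. Icam2 gave 0.967 with Scnn1b and 0.970 with Scnn1g. These r describe values that share library, depth and tissue content, and no test is attached. Of the cells known to express ENaC, club and type 1 alveolar cells had lower markers under HDM, and type 2 alveolar cells did not in wild type. All 7 club cell markers fell in both labels, their sum going from 17455 to 23757 CPM in WT_saline to 5254 to 10624 CPM in WT_HDM and from 20845 to 30539 CPM in KO_saline to 4769 to 9518 CPM in KO_HDM. Of 7 markers of type 1 alveolar cells, 4 fell in wild type and 6 under the knockout label. Their sum lay at 3456 to 5758, 2124 to 4090, 4775 to 5498 and 1854 to 3387 CPM in WT_saline, WT_HDM, KO_saline and KO_HDM. Of 8 markers of type 2 alveolar cells, 1 rose and 0 fell in wild type, and 0 rose and 4 fell under the knockout label. Their sum lay at 11946 to 20210, 10713 to 23132, 17954 to 25407 and 11431 to 18122 CPM in the same order of groups. Of 8 markers of ciliated cells, 0 rose in either label, and 3 fell in wild type and 5 under the knockout label. Their sum lay at 345 to 684, 317 to 525, 390 to 459 and 316 to 463 CPM in the same order of groups, with overlap. The part of these cells in the ENaC result was not tested.

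For Slc26a4 and the ENaC subunits, levels set against an epithelial gene in the same library showed the same order. Epcam itself passed no HDM test (log2 -0.07 in wild type and -0.21 under the knockout label), and Cdh1 was at -0.25 in wild type (adjusted p = 0.159) and fell under the knockout label (-0.48). Relative to Epcam, Slc26a4 was higher by 4.71 and 4.25 on the log2 scale in wild type and the knockout label, and Scnn1b was lower, at -1.23 and -1.55, with no overlap in either. Relative to Cdh1 these values were 4.89, 4.53, -1.05 and -1.27, again with no overlap. Scnn1a relative to Cdh1 was -0.26 in wild type, where groups overlapped, and -0.47 under the knockout label, where they did not. Scnn1g did likewise, at -0.65 and -1.09 relative to Epcam and -0.46 and -0.81 relative to Cdh1. Ano1 did not keep its order. Under the knockout label it was -0.10 relative to Epcam and 0.18 relative to Cdh1, with overlap in both.

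Per kilobase of exon, taken from the GENCODE annotation, the order of the genes changed with treatment. In WT_saline Scnn1a was highest at 78.6 ± 19.0 CPM per kb (SD, n = 5), followed by Scnn1g at 47.96 ± 12.8, Scnn1b at 36.5 ± 8.61, Slc12a2 at 35.1 ± 4.62 and Ano1 at 29.6 ± 4.99. The ranges of these 5 overlapped from neighbour to neighbour. Slc26a4 at 3.57 ± 2.48, Cftr at 2.69 ± 0.83 and Aqp3 at 2.07 ± 2.32 were lower, and overlapped among themselves. In WT_HDM Slc26a4 had the highest mean, 81.5 ± 30.1 CPM per kb, and its range of 50.3 to 113 overlapped that of Scnn1a (55.8 ± 18.2, range 42.2 to 86.1). Scnn1b stood at 14.9 ± 4.46 in WT_HDM, below Ano1 at 29.1 ± 5.81 with no overlap, and Cftr was at 4.99 ± 1.03. In KO_HDM Slc26a4 and Scnn1a were at 55.9 ± 13.6 and 53.3 ± 11.2, Slc12a2 at 46.9 ± 4.69 and Cftr at 7.24 ± 1.57. The scale of these levels rests on exon lengths that need not be those the authors used.

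Atp12a, the non-gastric proton pump that mouse airways are known to express little of, was close to absent. The sums over 5 libraries were 4, 1, 1 and 4 counts in WT_saline, WT_HDM, KO_saline and KO_HDM. All 4 counts of WT_saline were in replicate 1, at 0.254 CPM, while the 4 of KO_HDM were spread over 4 libraries at 0.0486 to 0.0539 CPM. No difference was detectable at this depth.

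Aqp3 was low and differed more between libraries of 1 group than any other of the 8. WT_saline replicates held 0.508, 9.48, 0.691, 6.49 and 1.08 CPM and WT_HDM replicates 3.95, 3.20, 8.004, 14.5 and 4.56 CPM. KO_saline replicates held 0.670, 1.08, 0.660, 1.57 and 2.28 CPM and KO_HDM replicates 4.64, 4.53, 1.99, 4.30 and 21.0 CPM. The 5 highest libraries were WT_saline 2 and 4, WT_HDM 3 and 4 and KO_HDM 5, and saline and HDM overlapped in both labels. The log2 fold change was 0.90 ± 0.75 in wild type (edgeR adjusted p = 0.393) and 2.53 ± 0.80 under the knockout label (adjusted p = 0.0133; 1.62 and adjusted p = 0.0746 without KO_HDM 5). The same 5 libraries were the ones with the most basal cell transcripts. The keratin Krt5, which defines basal cells, had no count in WT_saline 1 and 3 and 106 and 79 counts in WT_saline 2 and 4. Of the 6 basal markers 5 were tested: Dapl1 fell in wild type, and Trp63 and Ngfr rose under the knockout label. In the 15 libraries left when those 5 are set aside, Aqp3 was at 0.508 to 1.08 CPM in 3 WT_saline libraries, 3.20 to 4.56 in 3 WT_HDM libraries, 0.660 to 2.28 in 5 KO_saline libraries and 1.99 to 4.64 in 4 KO_HDM libraries. In wild type these no longer overlapped, and the log2 fold change was 2.33 ± 0.46 (edgeR adjusted p = 0.00271). Under the knockout label it was 1.604 ± 0.35 (adjusted p = 0.00131), with KO_HDM 3 below the highest KO_saline library. Leaving out the adipose-rich libraries instead gave 2.80 (adjusted p = 0.000908) and 1.602 (adjusted p = 0.00159). The ratio tests and this selection by basal markers were added after the data were seen. Both selections were made by marker genes and not by Aqp3, but the markers and Aqp3 move together.

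**Figure D4:**
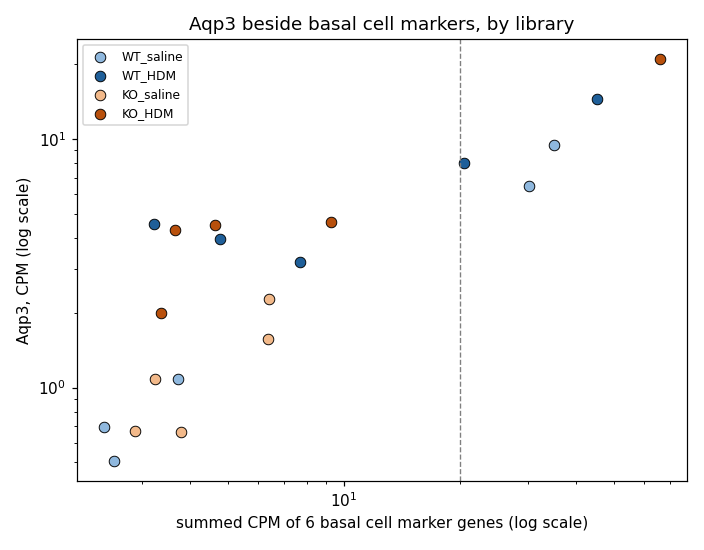
Aqp3 in CPM against the summed CPM of 6 basal cell markers in each of 20 libraries, both on log axes, coloured by group; the dashed line marks 20 CPM. The 5 libraries right of the line have the highest Aqp3, from 6.49 to 21.0 CPM, and to its left the 7 HDM libraries lie at 1.99 to 4.64 CPM and the 8 saline libraries at 0.508 to 2.28 CPM.

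Whether the genotype label changes these genes was asked under saline, under HDM and as an interaction. None of the 8 passed in any of the 3 comparisons. Under saline the edgeR test called 0 of 8, with 0 at an unadjusted p under 0.05 (1 each by DESeq2 and limma voom, neither calling any), where 0.908% of all genes were called. Under HDM it called 0, with 2 at an unadjusted p under 0.05 (2 each by DESeq2 and limma voom), where 6.67% of all genes were called. The interaction called 0, with 0 under 0.05 by each tool, where 1.24% of all genes were called. The 2 under HDM were Cftr and Slc12a2. Cftr was higher in KO_HDM by 0.54 (95% interval 0.12 to 0.96; edgeR adjusted p = 0.118; exact permutation p = 0.0238, n = 5, one of 32 such tests), with WT_HDM 1 and 5, at 43.2 and 43.0 CPM, above KO_HDM 5, the lowest of its group. Slc12a2 was higher in KO_HDM by 0.26 (0.00062 to 0.52; edgeR adjusted p = 0.235), and by 0.087 without the adipose-rich libraries (adjusted p = 0.68). For Slc26a4 the difference under HDM was -0.54 (95% interval -1.27 to 0.19; adjusted p = 0.399), and for Scnn1b it was -0.05 (-0.52 to 0.42; adjusted p = 0.926). Without the adipose-rich libraries the Slc26a4 difference under HDM was -0.86 (adjusted p = 0.0761). Its interaction, -0.51 over all libraries (adjusted p = 0.676), was -1.26 without the adipose-rich libraries (0.172) and -1.07 without the basal-rich ones (0.212). The interaction for the ENaC subunits was -0.44 for Scnn1a, -0.39 for Scnn1b and -0.51 for Scnn1g, with intervals from -1.20 to 0.27 across the 3 and adjusted p of 0.468 to 0.593. Comparisons between labels share their groups with the HDM comparisons.

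Other genes of the same transport system were read from 8 lists holding 70 genes, of which 64 could be tested. These are whole-lung levels, and the cells in which a gene changed were not tested. In wild type 14 rose and 6 fell, and under the knockout label 13 rose and 21 fell. Over all genes tested 13.6% rose and 16.5% fell in wild type, and 26.2% and 25.7% did under the knockout label; the counts in each role list stand against these same shares. The median log2 fold change of the 64 was -0.0047 in wild type and -0.05 under the knockout label, beside -0.02 and 0.02 over all genes tested.

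**Figure D5:**
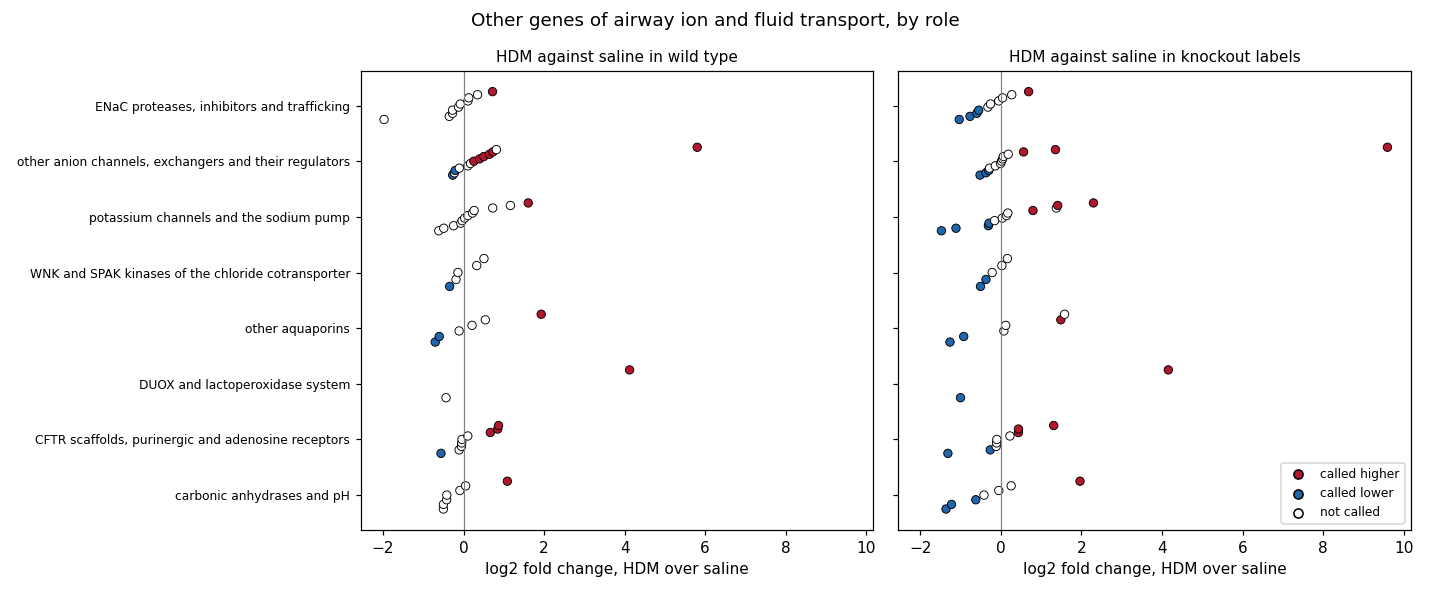
Log2 fold change of HDM over saline for 64 other ion and fluid transport genes, by role, in wild type and under the knockout label; red points rose, blue points fell and open points did not pass. Clca3 lies farthest right at 5.80 and 9.60, and Duox1 follows at 4.12 and 4.16.

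Among 10 genes that cleave, inhibit or traffic ENaC, 1 rose and 0 fell in wild type, and 1 rose and 4 fell under the knockout label. The one in wild type was the protease Tmprss4 (log2 0.72, edgeR adjusted p = 0.000458), named after its value was seen. Prss8 (prostasin), a protease that activates ENaC, went from 60.0 ± 10.4 to 29.3 ± 6.92 CPM under the knockout label (SD, n = 5; log2 -1.03, adjusted p = 0.000129), and its wild-type value was -0.36. Nedd4l, the ubiquitin ligase that removes ENaC from the membrane, fell by 0.77 on the log2 scale there. In wild type it was at -0.27 (edgeR adjusted p = 0.0598), and 0.0472 by DESeq2, 0.0488 by limma voom and 0.0322 with library size scaling. Sgk1, the kinase that holds Nedd4l back, rose by 0.69 under the knockout label and was at 0.35 in wild type (edgeR adjusted p = 0.0576; 0.0442 by DESeq2 and 0.0436 by limma voom). Sgk1 was also higher in KO_HDM than in WT_HDM, at 160.4 ± 28.1 against 111 ± 12.7 CPM (log2 0.53, adjusted p = 0.0214; 0.0857 without KO_HDM 4, 0.0628 without KO_HDM 3 and 0.063 without WT_HDM 4). It was 0.06 without the adipose-rich and 0.0623 without the basal-rich libraries.

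Of 13 tested anion channels, exchangers and regulators, 6 rose and 2 fell in wild type and 3 and 3 did under the knockout label. Clca3, the secreted goblet cell protein that modulates calcium-gated chloride current and is also on the goblet list, had the largest change, 5.80 in wild type and 9.60 under the knockout label. Under saline it was lower in the libraries labelled knockout (log2 -4.28, edgeR adjusted p = 0.00442), with overlapping groups of 1.33 to 131 CPM in WT_saline and 1.23 to 5.70 CPM in KO_saline. That call was lost with limma voom (adjusted p = 0.259), the compared groups alone (0.119) and without the adipose-rich (0.0667) or basal-rich (0.0748) libraries. Slc4a7, a sodium bicarbonate cotransporter, went from 36.5 ± 5.77 to 56.9 ± 8.07 CPM in wild type and from 27.8 ± 3.23 to 71.0 ± 6.56 CPM under the knockout label. Its response was larger in the latter (interaction 0.71 ± 0.16, edgeR adjusted p = 0.0375). That call was lost with upper quartile factors (adjusted p = 0.0571), without the adipose-rich (0.139) or basal-rich (0.102) libraries, and without WT_saline 1, 2 or 4, WT_HDM 2 or 5, KO_saline 2, 3 or 5, or KO_HDM 1, 3 or 4 (0.0533 to 0.101). Slc26a6, an anion exchanger of the family of Slc26a4, rose by 0.50 in wild type and by 0.56 under the knockout label, without overlap.

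Potassium channels set the voltage that drives chloride out, and the sodium pump the gradients behind it. Of 12 such genes 1 rose in wild type, and 3 rose and 4 fell under the knockout label. Kcnn4, a calcium-gated potassium channel, rose in both (log2 1.61 and 2.30, adjusted p = 0.00209 and 3.24e-05). Kcne2 and Kcne3 encode small subunits that modify the channel Kcnq1, and under the knockout label the first fell (-1.48) while the second rose (1.41). Fxyd5, a regulator of the sodium pump, rose by 0.80 under the knockout label and was higher in KO_HDM than in WT_HDM by 0.96 (edgeR adjusted p = 0.00385), with overlapping groups. Among 5 WNK, SPAK and related kinases that switch Slc12a2 on, Wnk4 fell in both labels (-0.35 and -0.51) and Oxsr1 under the knockout label (-0.37), and 0 rose. The Wnk4 call in wild type was lost without WT_saline 2 or 3, without WT_HDM 1, 2 or 4, with the compared groups alone (adjusted p = 0.0989) and without the adipose-rich (0.18) or basal-rich (0.0639) libraries.

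Of 6 tested aquaporins 1 rose and 2 fell in each label. Aqp5, the water channel of type 1 alveolar and gland cells, went from 149 ± 35.5 to 98.2 ± 24.4 CPM in wild type and from 204 ± 26.3 to 108 ± 20.3 CPM under the knockout label (log2 -0.61 and -0.92). The wild-type call was lost with the compared groups alone (adjusted p = 0.0523), without WT_saline 5 (0.0618) and without WT_HDM 3 (0.0515). Aqp1, the channel of capillary endothelium, fell by 0.70 and 1.26 on the log2 scale. Aqp9, a glycerol and water channel also found in leukocytes, rose by 1.93 and 1.49. Aqp3 thus rose under the knockout label while Aqp5 and Aqp1 fell.

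The oxidase Duox1 makes hydrogen peroxide at the airway surface, where lactoperoxidase uses it to oxidise thiocyanate, an ion that Slc26a4 carries. Duox1 went from 0.249 ± 0.303 to 4.47 ± 3.20 CPM in wild type and from 0.0909 ± 0.0450 to 1.74 ± 1.42 CPM under the knockout label. The log2 fold change was 4.12 and 4.16 (edgeR adjusted p = 0.000163 and 0.000125), without overlap in either. Saline libraries lay near the floor, at 0 to 0.777 CPM in WT_saline and 0.0440 to 0.141 CPM in KO_saline. The place of Duox1 among the tested genes thus rests on the HDM libraries. The size of its fold change rests on few saline counts. Without 1 library it was 3.64 to 5.17 in wild type and 3.51 to 4.39 under the knockout label. The maturation factor of Duox1, Duoxa1, was below the filter, with 7, 68, 3 and 37 counts over WT_saline, WT_HDM, KO_saline and KO_HDM. The peroxidase Lpo had 3, 5, 3 and 4 counts, too few to compare. Duox2 fell under the knockout label at the edge of the threshold (log2 -1.003, adjusted p = 0.0479), and the call was lost when most of the single libraries were left out (adjusted p up to 0.136, without KO_saline 1) and with library size scaling (0.0608), RLE factors (0.0509), no filter (0.0649), a filter of 1 CPM in 5 libraries (0.0591) or removal of Rn45s (0.057).

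Of 9 genes for Cftr scaffolds and nucleotide or adenosine signalling, 3 rose in each label, and 1 fell in wild type and 2 under the knockout label. The receptors that raise chloride secretion in response to nucleotides rose: P2ry2 by 0.87 and 0.44 and P2ry6 by 0.85 and 1.31 on the log2 scale, with no overlap in any of the 4. Without KO_HDM 4 the P2ry2 call under the knockout label was lost (adjusted p = 0.0671). P2ry6 was also higher in KO_HDM than in WT_HDM (0.52, adjusted p = 0.0313; 0.0533 with a replicate block, 0.109 with the compared groups alone, and 0.0601 to 0.119 without WT_HDM 3, 4 or 5 or KO_HDM 2, 3 or 4). Slc9a3r2, a scaffold that tethers membrane transporters, fell by 0.56 and 1.32. The wild-type call was lost with the compared groups alone (adjusted p = 0.0682), without the adipose-rich (0.084) or basal-rich (0.0859) libraries, and without WT_saline 3 or 5 or WT_HDM 2, 3 or 4.

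Of 7 carbonic anhydrases and proton transporters 1 rose and 0 fell in wild type, and 1 rose and 3 fell under the knockout label. Hvcn1, a proton channel found in airway cells and leukocytes, rose by 1.09 and 1.96; the wild-type call was lost with the compared groups alone (adjusted p = 0.112) and without WT_saline 1, 2, 3 or 5 or WT_HDM 1, 2 or 4 (0.0551 to 0.0763). Car14 and Slc9a2 fell under the knockout label by 1.23 and 1.36, and Slc9a2 was lower in KO_HDM than in WT_HDM (-1.12, adjusted p = 0.0301; 0.102 with the compared groups alone, 0.0905 without the adipose-rich libraries, 0.0503 by limma voom, and 0.0641 to 0.0881 without WT_HDM 2 or KO_HDM 2, 3 or 4). Car2 was higher in KO_saline than in WT_saline, at 103 ± 22.4 against 52.1 ± 8.25 CPM, with no overlap (log2 0.99, edgeR adjusted p = 0.000669). Car2 is also a red cell enzyme, and all 5 red blood cell genes were higher in KO_saline, with a sum of 8056 to 16605 CPM against 2098 to 5064 CPM in WT_saline; their part in the Car2 result was not tested.

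Genes with the most similar pattern over the 20 libraries were found by Pearson's r of log2 CPM among 14916 tested genes, 3 for each member. Slc26a4 was closest to Mmp19, a matrix metalloproteinase (0.977), Slc5a1, a sodium-glucose cotransporter (0.977), and Cd177 (0.975), which after removal of group means gave 0.514, 0.647 and 0.698. Scnn1b was closest to Arhgef3 (0.990), Icam2 (0.986) and the club cell gene Cyp4b1 (0.983), and Scnn1g to Icam2 (0.981), the type 1 cell gene Ager (0.981) and Pmp22 (0.978). For these the r of within-group deviations stayed at 0.934 to 0.970. Arhgef3, Icam2 and Pmp22 were on none of the cell marker lists used here. Scnn1a was closest to Mid1ip1, Capn2 and Clic3 (0.977 to 0.982), and Cftr to Soat1, Acsl4 and Eps8 (0.950 to 0.968). Slc12a2 was closest to Yipf6, Tm9sf3 and Pik3r3 (0.925 to 0.930), Aqp3 to Reg3g, Ltf and Gsto1 (0.934 to 0.948) and Ano1 to Syt7, Cachd1 and Cdcp1 (0.871 to 0.890). The 20 libraries share 4 group means, depth and tissue content, so these r describe likeness only.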

How the data were processed

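The authors deposited 1 table of expected counts per gene and library, not normalized; per the submitters' processing notes they used Bowtie2 2.1.0 and RSEM 1.2.15, and the build named is hg38, a human build, although the symbols are mouse. The build of the table is therefore not known, and coordinates are given only for RefSeq promoters on GRCm38.p6. RSEM shares reads between similar genes. Expected counts were rounded, filtered with filterByExpr by group, scaled with TMM factors and fitted with edgeR 4.0.16 (R 4.3.3), a mean per group, all 20 libraries and 16 residual degrees of freedom. Exact permutation tests used log2 CPM with a prior count of 2. P-values weigh a difference between groups against the spread between labelled biological replicates. In the main edgeR fit that spread is estimated over all 4 groups.

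The members and the lists were chosen with earlier results of these data known. Named genes are the 9 members, Alox15 and, from each list, up to 3 genes called under HDM with the largest mean change, plus every gene called between labels or in the interaction. Alternatives were other scaling factors and filters, DESeq2 1.42.0, limma 3.58.1 voom, the compared groups alone, a replicate block, removal of Rn45s, a threshold of 0.01, and leaving out each library or the adipose-rich ones. Leaving out the basal-rich libraries was added after the data were seen. Scripts were tested on simulated counts.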

Additional observations from a re-analysis of the deposited data

Results flagged for a closer look

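Slc26a4 in WT_saline replicate 2, at 24.4568 CPM, stood apart from the other 4 libraries of its group, which held 5.80 to 8.24 CPM. That library also had the highest summed goblet and ciliated markers of its group (1038 and 684 CPM), and summed basal markers of 35.1 CPM. WT_saline 4, next in goblet markers (580 CPM) and also basal-rich (30.2 CPM), had the lowest Slc26a4 of the group, 5.80 CPM. The part of these cells in the value was not tested.

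Aqp3 in KO_HDM replicate 5, at 21.0187 CPM, stood apart from the other 4 libraries of its group, which held 1.99 to 4.64 CPM. Its summed basal markers were 65.8 CPM, against 3.36 to 9.23 CPM in the other 4. Of 32 combinations of a gene and a group that were examined for a library standing apart, these 2 were found, and chance gives about 1 in 20.

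The HDM response of Slc4a7 differed between labels by an interaction of 0.713579 on the log2 scale (edgeR adjusted p = 0.0375). It rose in both labels.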

How the results depend on the processing

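Of 1272 fits of members under an alternative, 1202 kept direction and side of the threshold, 7 lost a call, 12 gained one and 51 changed sign, all 51 where neither fit passed. The calls lost or gained are given beside each gene. Leaving out 1 library gave 3 to 5 members called in wild type, 6 to 8 under the knockout label and 0 in the other 3 comparisons. Signs changed for these log2 values. Slc26a4 between labels under saline (-0.03) was 0.11 by limma voom, 0.026 with a replicate block, 0.40 without the adipose-rich and 0.40 without the basal-rich libraries, and -0.27 to 0.53 without 1 library. Ano1 under HDM in wild type was 0.0061 with no filter, 0.011 at 1 CPM and 0.0101 without Rn45s, and -0.12 to 0.061 without 1 library. Ano1 between labels under HDM was -0.022 with upper quartile factors, -0.10 without adipose-rich and -0.098 without basal-rich libraries, and -0.059 to 0.14 without 1 library. Aqp3 between labels under saline (-1.55) was 0.70 without the adipose-rich and 0.70 without the basal-rich libraries. Aqp3 between labels under HDM was -0.20 by limma voom, -0.14 with a replicate block, -0.50 and -0.026 without the adipose-rich and basal-rich libraries, and -0.82 to 0.59 without 1 library. The Aqp3 interaction (1.64) was -1.19 and -0.73 without them. Without 1 library the Cftr interaction was -0.050 to 0.26, and between labels under HDM Scnn1a was -0.16 to 0.13 and Scnn1b -0.16 to 0.12. The causes were not tested.

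The companions called in wild type (20) were 12 with the compared groups alone, 11 at an adjusted p under 0.01 and 13 without the basal-rich libraries. Between labels under saline (2) they were 5 by DESeq2 and 1 by limma voom, with the compared groups alone, and without the adipose-rich or basal-rich libraries. Between labels under HDM (4) they were 2 with the compared groups alone, 1 at 0.01, and 1 to 9 without 1 library, the 9 without KO_HDM 5. For the interaction (1) they were 2 with library size scaling, 4 by DESeq2, 0 to 2 without 1 library, and 0 with upper quartile factors, at 0.01, and without the adipose-rich or basal-rich libraries.

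Replicate numbers were not taken to pair the libraries, since the labels do not say that a number marks a shared litter, batch or day. Of 30 same-numbered pairs 17 correlated above 0.1, among them all 6 of number 1 (0.106 to 0.478). The lowest pair was at -0.457, and 7 of 20 libraries correlated best with their own number. These correlations cannot decide whether the numbers mark a pairing, which was not tested. With a replicate block 4 members were called in wild type and 8 under the knockout label, against 4 and 7 without it. Depth limits Atp12a, at 1 to 4 counts a group, and the low levels of Aqp3 and Duox1.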
